A study of Mus musculus with 36 samples.

Results

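The uroplakin genes Upk1a, Upk1b, Upk2, Upk3a and Upk3b were followed across 36 RNA sequencing libraries of mouse bladder tumours and bladder tumour cell lines. They were taken as the 5 rows of the deposited expression table that carry these symbols, out of 21705 genes. The UPPL primary tumours (9 libraries) came from untreated mice whose genotype label holds Upk3a-CreERT2, p53f/f and Rosa26LSL-Luc, so that the recombinase of this model is driven by the promoter of one of the genes described here. The BBN primary tumours (11 libraries) came from mice with the genotype label Ctrl that were given N-butyl-N-(4-hydroxybutyl)nitrosamine, a bladder carcinogen. Tumours derived from cell lines were labelled untreated and numbered 4 for UPPL1541 (genotype label as for the UPPL primary tumours), 2 for BBN963 and 4 for MB49, an established mouse bladder carcinoma line (genotype label Ctrl for both). Untreated cultures, all labelled Ctrl, comprised 1 library each of UPPL1541, BBN963 and MB49 and 3 of lines named KT1044, KT1970 and KT1975, whose origin the labels do not give. Each set of line-derived tumours stems from a single line. The labels give no strain, age or host of the line-derived tumours and no batch, and they do not say whether libraries of 1 line came from separate animals, so p-values measure the spread between these libraries only.

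Uroplakins are membrane proteins of the superficial umbrella cells that line the bladder. The tetraspanins encoded by Upk1a and Upk1b each pair with a single-pass partner in the endoplasmic reticulum, Upk1a with Upk2 and Upk1b with Upk3a or Upk3b, and the pairs are assembled into rigid plaques that vesicles carry to the apical surface, where they form part of the barrier to urine. Upk1b is also made in other epithelia, and Upk3b is also made in mesothelium, the lining of the body cavities.

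Values are the authors' gene estimates scaled so that the 75th percentile of each library's values above 0 is about 1000 units, and levels below are in these units unless given per kilobase. Depth, in units of 1e6 reads recovered from the steps between values, was 9.29 to 17.9 per library. Among low values the commonest equalled 1 read in each of the 6 cultures but 2 to 19 reads in tumours, and a tumour's 0 may therefore hide fewer reads than that. Summed values of 7 pan-epithelial markers (Epcam, Cdh1 and others) were 47119 to 78303 in UPPL and 40729 to 98224 in BBN primary tumours, 46227 to 75918 in UPPL1541, 49719.5 to 51946 in BBN963 and 27.1 to 99.2 in MB49 tumours, where Esrp1 and Rab25 were at 0 in all 4 libraries. The libraries are bulk tissue, in which fewer cells of a type and less RNA per cell cannot be told apart.

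Upk1a, Upk1b, Upk2 and Upk3b, 4 of the 5 genes, were higher in UPPL than in BBN primary tumours, and Upk3a did not pass the test. The differences in mean log2(value + 1) lay between 3.42 and 6.44, and their median over the 5 genes was 4.42, against -0.19 over the 12818 genes tested. A gene passed at an adjusted p of 0.05 in limma, with Benjamini-Hochberg adjustment over all genes tested; 5.71 percent of genes passed as higher and 12.8 percent as lower in UPPL. Of the genes that passed, 30.9 percent were higher in UPPL as deposited and 48.7, 48.6 and 55.1 percent under quantile normalization, median-of-ratios scaling and edgeR on recovered reads, with the median of all genes at -0.04 under quantile normalization. The same 4 of 5 members passed as higher in UPPL under each of these 3 scalings.

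Upk1a encodes the tetraspanin that pairs with Upk2. It ranged from 166 to 13824 units in UPPL primary tumours (median 5191) and from 0 to 1019 units in BBN primary tumours (median 44.1). In 8 of 9 UPPL tumours the value lay above that of every BBN tumour, and the exception was tumour UPPL1591. Means were 7065 ± 5434 units in UPPL tumours (SD, n = 9) and 230.0 ± 342 units in BBN tumours (SD, n = 11), and the log2 fold change was 6.44 (SE 1.14, limma adjusted p = 8.3e-04).

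Upk1b, the other tetraspanin gene, had the highest median per kilobase of the 5 in both models. It ranged from 1561 to 37628 units in UPPL tumours (median 13216) and from 0 to 4029 units in BBN tumours (median 1502.5). The groups overlapped, with 7 of 9 UPPL tumours above every BBN tumour and UPPL1591 and UPPL1598 (2657 units) within the BBN range. The log2 fold change was 4.42 (SE 1.22, limma adjusted p = 0.016).

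Upk2 encodes the single-pass partner of Upk1a. It ranged from 99.4 to 4191 units in UPPL tumours (median 1201.5) and from 0 to 987 units in BBN tumours (median 156). The 5 UPPL tumours above every BBN tumour were UPPL1541 (1666 units), UPPL1544 (1201.5), UPPL1612 (3685), UPPL1694 (3830.2) and UPPL1695 (4191). The log2 fold change was 3.70 (SE 1.05, limma adjusted p = 0.018).

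Upk3a, a single-pass partner of Upk1b and the gene whose promoter drives the recombinase of the UPPL mice, varied most among UPPL tumours. It was listed at 0 in UPPL1591 and UPPL1595, at 2.61 units in UPPL1598 and at 47.8 units in UPPL1597, whereas UPPL1541 (1783.5 units), UPPL1544 (668), UPPL1612 (8508), UPPL1694 (4636) and UPPL1695 (3167) lay above every BBN tumour. These are the 5 tumours that also lay above every BBN tumour in Upk2. Among BBN tumours Upk3a ranged from 0 to 635 units (median 5.20), with 4 of 11 listed at 0. The log2 fold change of 3.42 had an SE of 1.88 and did not pass (limma adjusted p = 0.20), and its 95 percent interval ran from -0.26 to 7.10.

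Upk3b, the alternative partner of Upk1b, had the narrowest spread of the 5 genes among UPPL tumours. It ranged from 453 to 4372 units in UPPL tumours (median 2762) and from 0 to 698 units in BBN tumours (median 34.15), of which 2 were listed at 0. In 8 of 9 UPPL tumours the value lay above that of every BBN tumour, the exception again being UPPL1591. The log2 fold change was 5.98 (SE 0.990, limma adjusted p = 4.9e-04). Without the primary tumours UPPL1541 and BBN963, whose numbers the lines carry, Upk1b and Upk2 missed the threshold (log2 fold changes 3.77 and 3.40, limma adjusted p = 0.051 for each), which left 2 members called.

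**Figure D1:**
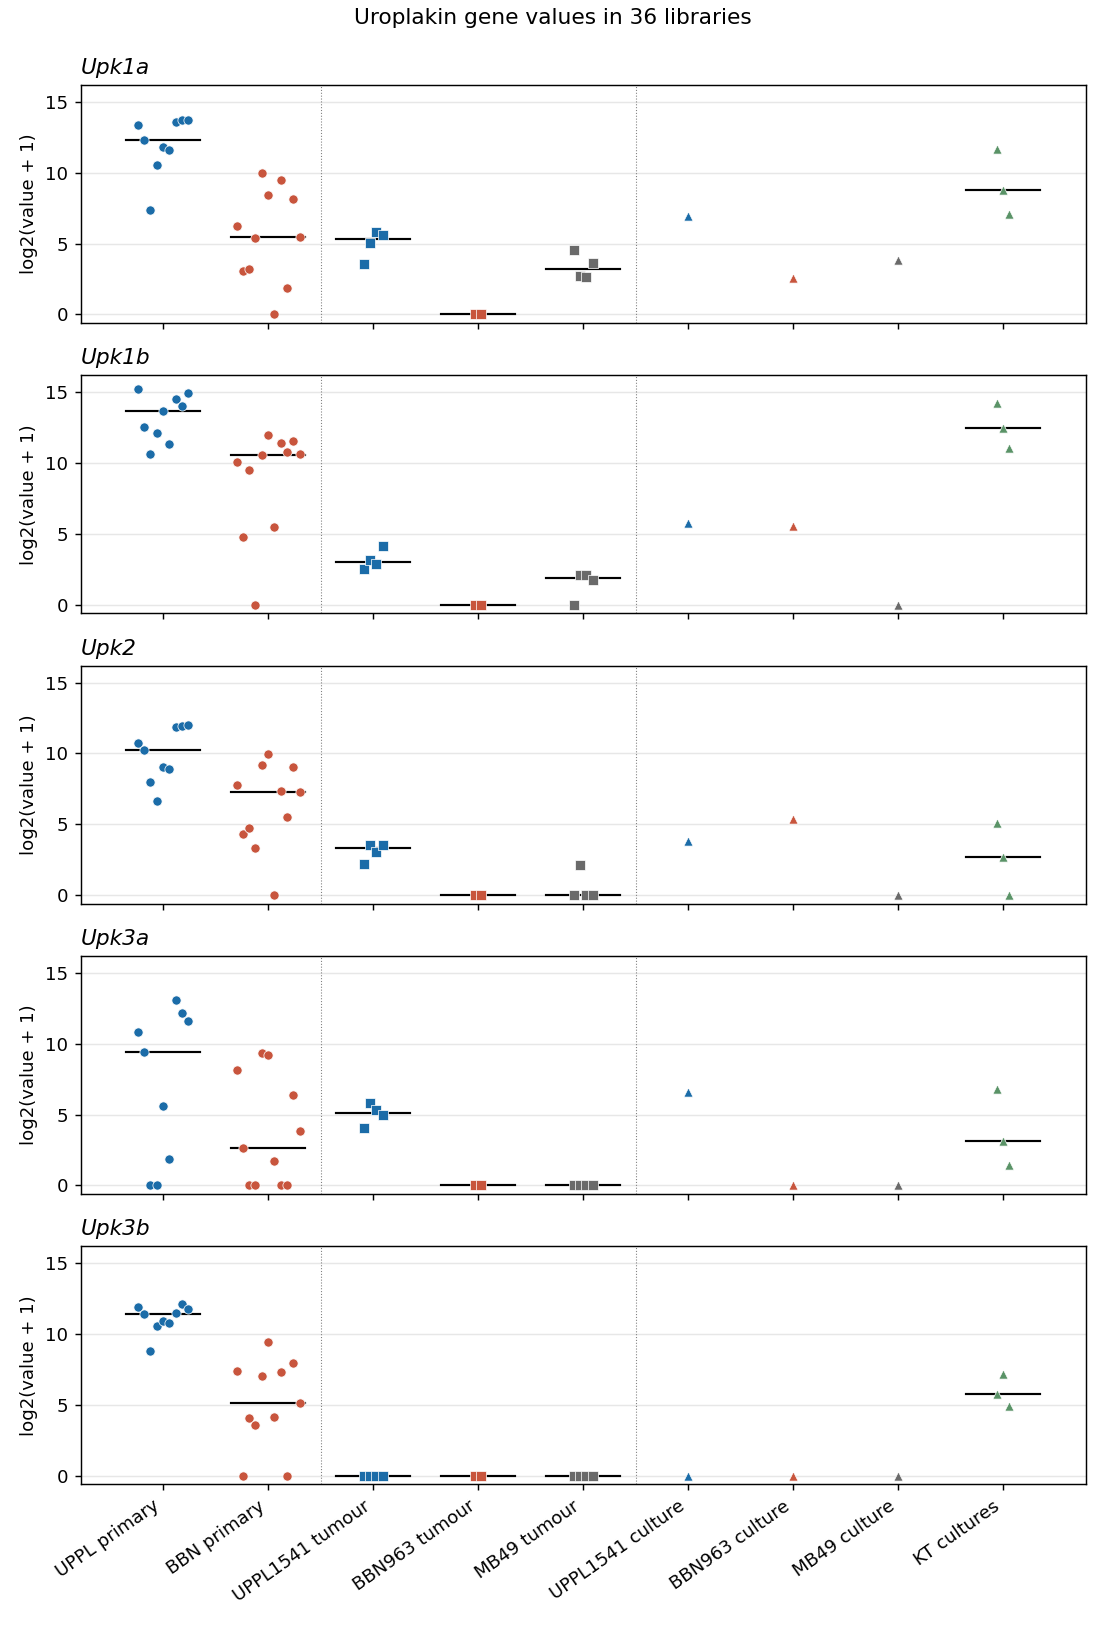
Values of the 5 uroplakin genes, as log2(value + 1) of the scaled units, in all 36 libraries; each point is a library, columns are groups and black bars are group medians. The median of the UPPL primary tumours lies above that of the BBN primary tumours in each gene, the 2 groups overlap, no line-derived tumour passes 56.1 units in any gene, and the 3 KT cultures are high in Upk1b.

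The promoters of 3 of the 5 genes were available from RefSeq (GRCm38.p6) and are shown because these genes varied together across primary tumours. The 250 bases before the annotated start are printed 5′ to 3′ along the gene, with motif matches in capitals.
Upk1a chr7:30612735-30612984 minus strand: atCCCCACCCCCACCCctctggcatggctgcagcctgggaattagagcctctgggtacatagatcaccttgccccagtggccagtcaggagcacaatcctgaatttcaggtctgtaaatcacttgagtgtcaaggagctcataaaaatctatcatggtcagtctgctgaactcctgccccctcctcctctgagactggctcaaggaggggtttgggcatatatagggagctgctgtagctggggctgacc
Upk3a chr15:85016891-85017140 plus strand: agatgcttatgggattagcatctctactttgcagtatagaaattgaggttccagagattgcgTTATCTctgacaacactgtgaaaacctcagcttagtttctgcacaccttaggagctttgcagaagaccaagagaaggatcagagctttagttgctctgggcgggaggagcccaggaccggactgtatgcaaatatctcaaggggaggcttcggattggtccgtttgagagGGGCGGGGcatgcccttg
Upk3b chr5:136038246-136038495 plus strand: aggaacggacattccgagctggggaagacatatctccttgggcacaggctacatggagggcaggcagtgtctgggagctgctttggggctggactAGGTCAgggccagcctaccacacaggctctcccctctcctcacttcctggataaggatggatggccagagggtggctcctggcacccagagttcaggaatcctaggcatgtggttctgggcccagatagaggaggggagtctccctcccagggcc
For 6 motifs, of factors known in urothelium or of the basal promoter, both strands were searched. These were the nuclear receptor half-site AGGTCA, the KLF-type CCNCNCCC, the GATA-type AGATAA, the GRHL-type ACCGGTT, the FOXA-type TGTTTAC and the TATA box TATAAA. The Upk1a promoter held 3 overlapping KLF-type matches between positions -248 and -235 from the start, in a CCCCACCC repeat. The Upk3a promoter held 1 KLF-type match on the reverse strand (GGGCGGGG, from -18 to -11) and 1 GATA-type match on the reverse strand (TTATCT, from -188 to -183). The Upk3b promoter held 1 nuclear receptor half-site (from -155 to -150). No motif was shared by all 3 promoters. Among 27025 promoters of the same length, 45.6 percent held a KLF-type match, 13.8 percent the half-site, 10.3 percent the GATA-type, 3.09 percent the FOXA-type and 0.799 percent the GRHL-type match, while 3504 of them held the TATA box. The matches are descriptions of the letters and not binding sites.

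For a per-kilobase scale, values were divided by the joined length of all annotated exons in GENCODE vM21, not by transcript length. That length was 3530 bases for Upk3b and 1083 to 2089 for the others, and the order of genes can depend on it. In units the UPPL median of Upk3b (2762) stood above that of Upk2 (1201.5). Per kilobase, Upk1b was the highest of the 5 in 6 of 9 UPPL tumours and in 9 of 11 BBN tumours, and Upk1a was the highest in the other 3 UPPL tumours. Median per-kilobase levels in UPPL tumours were 6327 for Upk1b, 3653 for Upk1a, 1109 for Upk2, 782 for Upk3b and 611 for Upk3a. In BBN tumours they were 719 for Upk1b, 144 for Upk2, 31.0 for Upk1a, 9.67 for Upk3b and 4.76 for Upk3a. As a share of the per-kilobase sum of the 5 genes, Upk1a had a median of 28.6 percent in UPPL tumours and 6.21 percent in BBN tumours, and Upk1b a median of 45.8 percent in UPPL tumours and 63.8 percent in BBN tumours.

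Whether the genes differed from each other in the size of the model difference was tested within tumours, as the difference in log2(value + 1) between 2 genes, for all 10 pairs. One pair passed: Upk1a minus Upk2, the genes of one plaque pair, averaged 2.08 ± 1.22 in UPPL tumours (SD, n = 9) and -0.66 ± 1.76 in BBN tumours (SD, n = 11; difference 2.74, exact two-sided permutation test, p = 0.0015, adjusted p = 0.015 over the 10 pairs). In 4 of 9 UPPL tumours that difference lay above every BBN tumour. Upk2 minus Upk3b came next, at -1.17 ± 1.33 in UPPL tumours and 1.12 ± 2.53 in BBN tumours, and did not pass (exact permutation adjusted p = 0.12). Upk3a, which missed the threshold in the comparison of models, was not shown to differ from the other 4 genes: adjusted p in these exact permutation tests lay between 0.24 and 0.85 for the 4 pairs that hold it.

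Among tumours of a single model high and low values of the 5 genes tended to fall in the same tumours. In the 9 UPPL tumours all 10 pairs passed (Pearson r 0.75 to 0.98, Spearman rho 0.80 to 0.98, 20 relations tested over both models). The share of all gene pairs that would pass was not computed in either model. The counts of pairs are therefore not read as particular to uroplakin genes. The highest r was that of Upk1a with Upk3b (r = 0.98, rho = 0.92, exact permutation adjusted p = 5.9e-04 for r and 0.0066 for rho, n = 9), and r was 0.90 without the 2 tumours farthest from the median of Upk1a. The highest rho was that of Upk1a with Upk2 (rho = 0.98, r = 0.81, exact permutation adjusted p = 9.9e-04 for rho and 0.011 for r), with r = 0.97 without the same 2 tumours. Upk2 with Upk3a gave r = 0.95 and rho = 0.93 (exact permutation adjusted p = 3.9e-04 and 0.0059), and r was 0.93 without the 2 farthest tumours. Over the 10 UPPL pairs r without the 2 farthest tumours lay between 0.73 and 0.97.

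In the 11 BBN tumours 6 of 10 pairs passed. Upk1a with Upk2 had the highest r and rho (r = 0.84, rho = 0.85, permutation adjusted p = 0.0041 and 0.0068), with r = 0.72 without the 2 farthest tumours. Upk1b with Upk2 gave r = 0.74 and rho = 0.79 (permutation adjusted p = 0.018 and 0.0098), with r = 0.91 without the 2 farthest tumours. The 4 pairs that did not pass were Upk1a with Upk1b (r = 0.45), Upk1a with Upk3a (0.58), Upk1b with Upk3a (0.45) and Upk1b with Upk3b (0.51), with permutation adjusted p between 0.078 and 0.18. For Upk1b with Upk3b the rank correlation did pass (rho = 0.68, permutation adjusted p = 0.030). Tumour BBN974 had 1741 units of Upk1b beside 2.71 units of Upk1a, 45.2 of Upk2 and 0 of Upk3a and Upk3b; BBN965 was listed at 0 for Upk1b beside 41.7 units of Upk1a. Whether the correlations differ between the models was not tested.

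**Figure D2:**
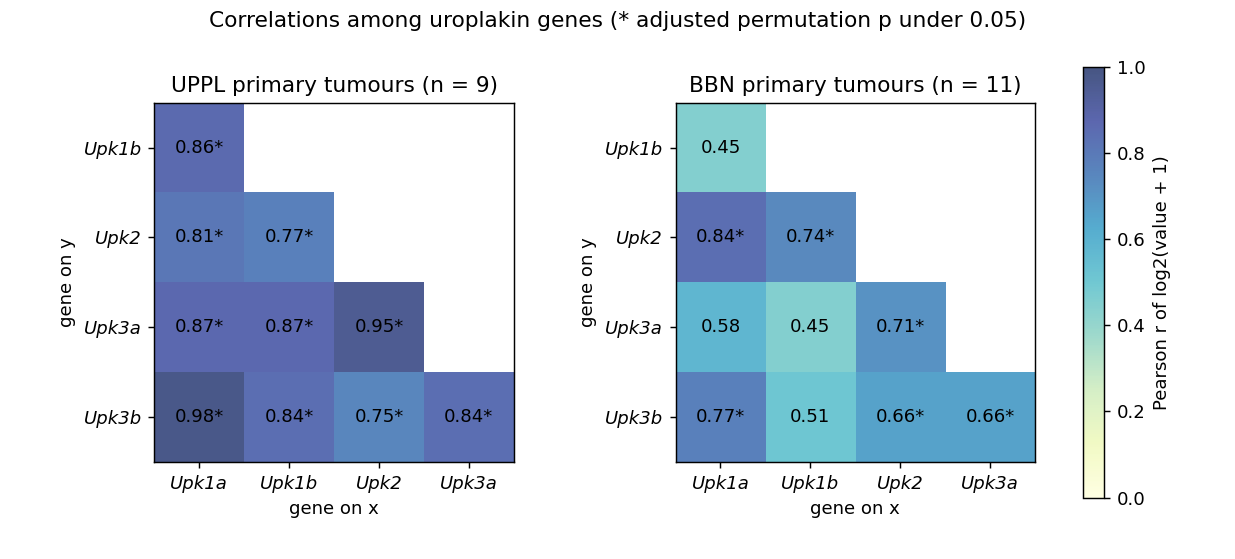
Pearson correlations of log2(value + 1) between pairs of uroplakin genes, across 9 UPPL primary tumours (left) and 11 BBN primary tumours (right); the colour and the printed number give r and an asterisk marks a permutation p under 0.05 after adjustment over the 20 relations. All 10 UPPL pairs and 6 BBN pairs carry the asterisk, and the pairs without it in BBN hold Upk1b or Upk3a.

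The genes most like each member were ranked over the 20 primary tumours by Pearson r of log2(value + 1) after the mean of each model was subtracted, among 12817 other genes. Upk2 ranked 6 for Upk1a (r = 0.837), and Upk1a ranked 14 for Upk2; Upk1a also ranked 11 for Upk3b (r = 0.774). The lowest value between 2 members was that of Upk1b with Upk3a (r = 0.504), where Upk3a ranked 645 for Upk1b. The leading genes for Upk1a were Pllp, which encodes the membrane protein plasmolipin (0.885), Reps2 (0.876) and Pkhd1 (0.848), and for Upk2 they were Scamp5, which encodes a secretory carrier membrane protein (0.901), Reps2 (0.883) and Tc2n (0.874). For Upk3a they were Cntnap2 (0.929), Cyp4f15, a cytochrome P450 gene (0.882), and Tc2n (0.872), for Upk1b Slc16a7, a monocarboxylate transporter gene (0.911), Fer1l4 (0.893) and the ligand gene Shh (0.879), and for Upk3b Ugt2b34, a glucuronosyl transferase gene (0.854), Plin4 (0.854) and Fmo5 (0.842). These are the top ranks of a long list and are given as a description.

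Upk3bl, a gene named for its likeness to Upk3b, did not pass between the models. It ranged from 102 to 2765 units in UPPL primary tumours and from 15.7 to 2939 units in BBN primary tumours (log2 fold change -0.04, SE 0.728, limma adjusted p = 0.98, 95 percent interval -1.47 to 1.39). In line-derived tumours it stood at 448 to 875 units in UPPL1541, 467 to 607 in BBN963 and 64.0 to 159 in MB49, and it did not pass between UPPL line-derived and primary tumours (-0.19, limma adjusted p = 0.90).

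Of 11 measured genes that carry and fuse plaque vesicles, 6 were higher in UPPL primary tumours, 0 lower and 5 did not pass (median log2 fold change 0.55). Mal, which encodes a raft protein of apical transport (25081 ± 10914 units in UPPL tumours and 12328 ± 9005 units in BBN tumours; 1.31 on the log2 scale, limma adjusted p = 0.042), and Rab27b, a GTPase gene of vesicle docking (2.35, limma adjusted p = 3.6e-04), were among them, with Myo5b, a motor gene (1.53), and Rab11a (0.55). Snx31, which encodes the sorting nexin known to bind uroplakins in urothelium, also passed (4.21, limma adjusted p = 0.023). Mal and Snx31 lost their calls with edgeR on recovered reads (adjusted p = 0.061 and 0.059).

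Of 12 urothelial regulators, 2 were higher in UPPL and 10 did not pass: Pparg, the nuclear receptor gene of urothelial differentiation (2.92, limma adjusted p = 0.0016), and Tbx2 (3.03, limma adjusted p = 0.028) passed, while Grhl3 gave 1.17 and Klf5 -0.25. Under median-of-ratios scaling 4 regulators passed, with Grhl3 (adjusted p = 0.046) and Rxra (0.018) added. Of 10 umbrella and luminal markers, 4 were higher and 6 did not pass. Krt18 (2.27), Krt8 (2.87), Cldn4 (1.75) and Gcnt3 (3.08) passed, while Krt20, the keratin of umbrella cells, gave 0.37 (limma adjusted p = 0.78). Of 12 basal markers, 3 were lower (Krt17, Cdh3 and Itgb4, the last not with edgeR, adjusted p = 0.12) and 9 did not pass, Krt5 giving -0.40 and Krt14 -1.01.

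Markers of other cells were also compared between the models, where 12.8 percent of all genes passed as lower and 5.71 percent as higher in UPPL. Of the pan-epithelial markers, Epcam gave -0.52 (limma adjusted p = 0.26) and Cdh1 0.27 (limma adjusted p = 0.37). Fibroblast markers had 1 lower of 7 tested (Col1a1, whose call was lost under quantile normalization, adjusted p = 0.063), with sums of 364 to 6842 units in UPPL and 296 to 56506 units in BBN tumours. Smooth muscle markers had 2 lower of 6, Des and Actg2, and none of them passed under quantile normalization. Leukocyte markers had 4 lower of 6 tested (sums 388 to 1574 in UPPL and 906 to 5494 in BBN), among them Ptprc (-1.80), Csf1r (-2.15), Lyz2 (-1.46) and C1qa (-1.74), and endothelial markers had 1 higher of 6 (Esam, limma adjusted p = 0.0034). The part of these cells in the uroplakin differences was not tested. Mesothelial markers, which bear on Upk3b and Upk1b, had 7 of 8 genes in the table, summed to 63.2 to 894 units in UPPL and 376 to 2349 units in BBN tumours and had 1 lower (Bnc1, -2.53) of 2 tested; Calb2 was at 0 in all 20 primary tumours, and Lrrn4, Wt1 and Rspo1 were too low to test. The tumour lowest in Upk1a and Upk3b among UPPL, UPPL1591, had the lowest sum of mesothelial markers (63.2) and of vesicle traffic genes (27621) and the highest sum of basal markers (720903) of the 9, while its pan-epithelial sum was 75666.

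Uroplakin expression was far lower in tumours grown from UPPL1541 than in UPPL primary tumours. In the 4 UPPL1541 tumours Upk1a stood at 10.8, 32.6, 54.6 and 48.8 units, Upk1b at 4.78, 7.82, 6.21 and 16.7, Upk2 at 3.58, 10.4, 7.45 and 10.7, and Upk3b was listed at 0 in all 4. Each of these values lay below every one of the 9 UPPL primary tumours. How many of all genes lay apart in this way was not counted, so this separation is a description. Upk1a fell by 6.99 (SE 1.41, limma adjusted p = 6.2e-04), Upk1b fell by 10.05 (SE 1.49, 2.3e-05), Upk2 fell by 6.84 (SE 1.30, 3.4e-04) and Upk3b fell by 11.10 (SE 1.23, 5.5e-07) on the log2(value + 1) scale. Upk1b and Upk3b reached the filter on low values (10 units in at least 2 libraries) only through other groups, so the number of calls is given as a description. Against a floor of 3 reads in a single library, Upk3b was at least 659-fold lower in the line-derived tumours. Upk3a stood at 15.5, 56.1, 39.7 and 29.8 units in the UPPL1541 tumours, inside the range of the primary tumours (0 to 8508), and did not pass (-2.12, SE 2.31, limma adjusted p = 0.53).

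The background in that comparison was 5.98 percent of 15229 genes passed as lower and 20.5 percent as higher; 77.4 percent of the genes that passed were higher as deposited, 51.1 percent under quantile normalization and 52.3 percent with edgeR on recovered reads, and the median of all genes was 0.37 as deposited and -0.03 under quantile normalization. The 4 uroplakin calls stood under each of these scalings. Pan-epithelial sums overlapped between the groups (46227 to 75918 units in UPPL1541 tumours and 47119 to 78303 units in UPPL primary tumours), with 2 of 7 markers lower (Cdh1 and Cldn7) and 5 that did not pass. Fibroblast marker sums did not overlap (75095 to 373478 units in UPPL1541 tumours and 364 to 6842 units in primary tumours), and neither did leukocyte sums (7698 to 12115 units in UPPL1541 tumours and 388 to 1574 units in primary tumours); their part in the result was not tested.

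Of the urothelial regulators, 8 of 12 were lower in UPPL1541 than in UPPL primary tumours and 0 higher, among them Pparg (31.6 ± 11.2 against 2191 ± 709 units; -6.07, limma adjusted p = 1.7e-05), Foxa1 (-2.81), Elf3 (-2.74) and Tbx3 (-4.32). Of 10 luminal markers 7 were lower, including Krt18 (-4.31) and Gcnt3 (-6.90), and 2 higher, Krt20 (2.72, limma adjusted p = 0.039) and Gsdmc (4.80, limma adjusted p = 0.031); the Krt20 call was lost under median-of-ratios scaling (adjusted p = 0.060) and the Gsdmc call under quantile normalization (0.053). Of 11 vesicle traffic genes 5 were lower and 2 higher (Vps33a and Rab8a, neither with edgeR, adjusted p = 0.057 and 0.15), with Snx31 at -8.63, Sytl2 at -4.26 and Mal at -2.72.

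In both BBN963 tumours all 5 uroplakin genes were listed at 0. The primary tumour numbered BBN963 was itself low (27.1 units of Upk1b, 18.7 of Upk2 and 0 of Upk3b), so no fall within this line is shown. The BBN primary tumours as a group ranged from 0 up to 635 to 4029 units depending on the gene. Against them Upk1b (-8.80, SE 1.91, limma adjusted p = 0.0044), Upk2 (-6.23, SE 1.66, 0.020) and Upk3b (-5.11, SE 1.58, 0.045) passed as lower. With 0 in both BBN963 tumours, the 5 genes reached the filter on low values only through other groups. They could therefore only come out as lower or not pass, and the number that passed is given as a description. Upk1a (-5.57, limma adjusted p = 0.056) and Upk3a (-3.75, limma adjusted p = 0.47) did not pass, and 5.67 percent of all genes passed as lower. Among the genes that passed, 26.9 percent were higher as deposited and 42.9 percent with edgeR on recovered reads, and the median of all genes was -0.17 as deposited and -0.07 under quantile normalization. Against the mean of the BBN primary tumours and a floor of 3 reads in a single library, the values were at least 394-fold lower for Upk1b, 65.3-fold for Upk2, 60.4-fold for Upk1a, 38.5-fold for Upk3a and 35.5-fold for Upk3b. The most frequent low value of BBN963 tumour 1 was 19 reads (24.1 units), so these bounds cover counting error only. Pan-epithelial sums were 49719.5 to 51946 units in BBN963 tumours, inside the range of the BBN primary tumours (40729 to 98224), and fibroblast sums were 87114 to 114665 units in BBN963 tumours, above those of all BBN primary tumours (296 to 56506); their part in the result was not tested. None of the calls stood without either of the BBN963 tumours: adjusted p without one of them was 0.060 to 0.10 for Upk1b, 0.15 to 0.23 for Upk2 and 0.24 to 0.34 for Upk3b.

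**Figure D3:**
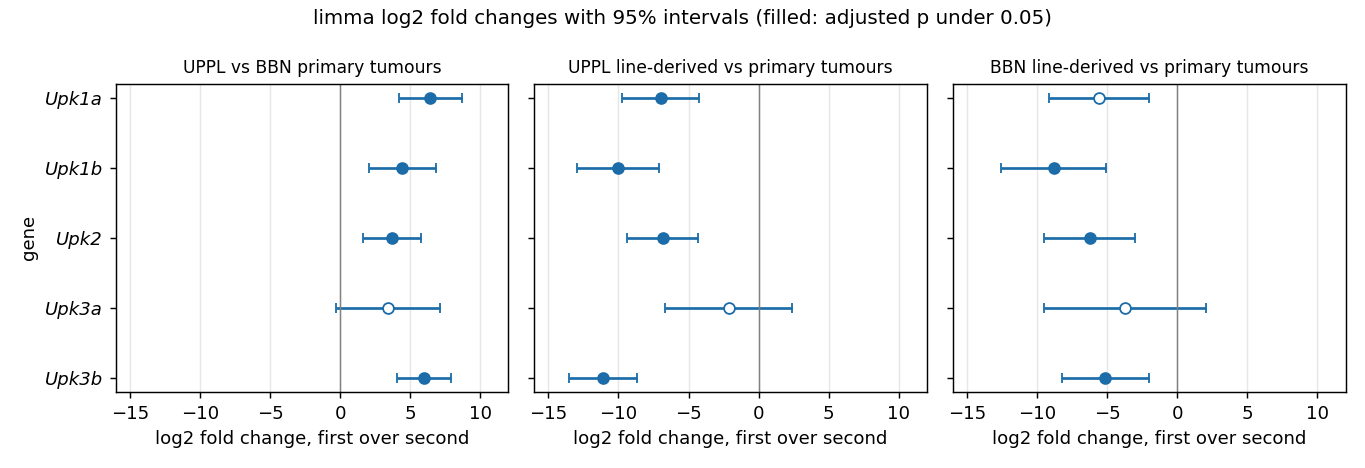
Log2 fold changes of the 5 uroplakin genes on the log2(value + 1) scale, with bars of 95 percent intervals from limma's SE, for UPPL over BBN primary tumours (left), UPPL line-derived over primary tumours (middle) and BBN line-derived over primary tumours (right); filled points passed at an adjusted p under 0.05. The fold changes lie above 0 in the left panel and below 0 in the others, and Upk3a is unfilled in all 3 panels.

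The difference between models was compared between line-derived and primary tumours with an interaction term. None of the 5 genes passed (9.22 percent of all genes did), and edgeR on recovered reads called 0. In limma 1 of them, Upk3b, had an unadjusted p under 0.05, as had 3933 of all 15229 genes. Upk3b gave -5.98 (SE 2.00, unadjusted p = 0.0060, limma adjusted p = 0.057), and it was at 0 in both sets of line-derived tumours. This value is therefore the difference between the primary tumours with its sign reversed, and it cannot test a change of that difference. The other 4 genes gave -1.42 (Upk1a), -1.25 (Upk1b), -0.61 (Upk2) and 1.62 (Upk3a), with SEs of 2.11 to 3.74. These genes too were at 0 in both BBN963 tumours, so the size of the difference within BBN is not known. Their values therefore depend on the pseudocount and cannot decide whether the model difference changed. The median of all genes was 0.55 as deposited and 0.07 under quantile normalization. Of genes that passed that test, 88.5 percent were higher as deposited and 47.1 percent with edgeR on recovered reads.

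All 10 line-derived tumours were low in the 5 genes, and the lines were set against each other. Only Upk1a, Upk2 and Upk3a reached the filter on low values (10 units in at least 2 libraries), and they did so through the UPPL1541 tumours or, for Upk1a, also through MB49 tumours, so the number that passed is not read as a result, and Upk2 and Upk3a are given by their values with no test. Upk3a, at 15.5 to 56.1 units in UPPL1541 tumours, was listed at 0 in the 2 BBN963 tumours (at least 9.27-fold higher in UPPL1541, against a floor of 3 reads in a single library) and in the 4 MB49 tumours (at least 10.1-fold higher). Upk1a was higher in UPPL1541 than in BBN963 tumours (5.02, SE 0.872, limma adjusted p = 0.0021, at least 9.64-fold). The commonest low value was 24.1 units in BBN963 tumour 1 and 11.4 units in MB49 tumour 1, so the bounds over BBN963 and MB49 cover counting error only. Upk1a stood at 10.8, 32.6, 54.6 and 48.8 units in UPPL1541 tumours, against 22.9, 5.61, 5.33 and 11.7 units in MB49 tumours, and that difference did not pass (1.61, limma adjusted p = 0.082), although it passed without MB49 tumour 1 (2.00, limma adjusted p = 0.045) or UPPL1541 tumour 1 (2.10, 0.031).

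Upk2 was 3.58 to 10.7 units in UPPL1541 tumours, which is 3 to 9 reads, against 0 in BBN963 tumours and 0, 3.37, 0 and 0 units in MB49 tumours. Upk1a was listed at 0 in BBN963 tumours and passed as lower there than in MB49 tumours (-3.41, limma adjusted p = 0.0087). The commonest low value of BBN963 tumour 1 was 24.1 units, above every MB49 value (5.33 to 22.9). A 0 in that tumour therefore cannot show a lower level, which limits this call. That call was lost with a pseudocount of 10 (adjusted p = 0.13), with a replicate block (0.056) and without the 5 libraries whose commonest low value was 10 reads or more (0.053). Upk1b, below the filter, was 4.78 to 16.7 units in UPPL1541 tumours, 0 in BBN963 tumours and 0 to 3.37 units in MB49 tumours, and Upk3b was at 0 in all 10. The share of all genes that passed as higher was 21.4 percent for UPPL1541 over BBN963 and 27.3 percent for UPPL1541 over MB49, and 26.1 percent passed as lower for BBN963 against MB49. Of genes that passed, 74.4 percent were higher in UPPL1541 than in BBN963 tumours as deposited and 52.3 percent under quantile normalization, and 37.7 percent were higher in BBN963 than in MB49 tumours as deposited and 50.8 percent with edgeR. The median of all genes was 0.32 for UPPL1541 over BBN963 and -0.24 for BBN963 over MB49 as deposited, and 0.02 and -0.09 under quantile normalization.

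Uroplakin RNA was lower in the UPPL1541 culture than in the primary tumour of the same number. The primary tumour numbered UPPL1541 held 10531 units of Upk1a, 37628 of Upk1b, 1666 of Upk2, 1783.5 of Upk3a and 3940.2 of Upk3b, and the UPPL1541 culture held 122, 54.2, 13.1, 93.4 and 0 units of the same genes. The ratio of primary tumour to culture was 86.1 for Upk1a, 695 for Upk1b, 127 for Upk2 and 19.1 for Upk3a, and at least 1407 for Upk3b against a floor of 3 reads. With 1 library at each of these stages the ratios have no replicate check. The primary tumour numbered BBN963 was itself low, with 7.29 units of Upk1a, 27.1 of Upk1b, 18.7 of Upk2, 5.20 of Upk3a and 0 of Upk3b. The BBN963 culture held 4.87, 46.2, 41.4, 0 and 0 units of these genes, and the MB49 culture held 13.5 units of Upk1a and 0 of the other 4.

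**Figure D4:**
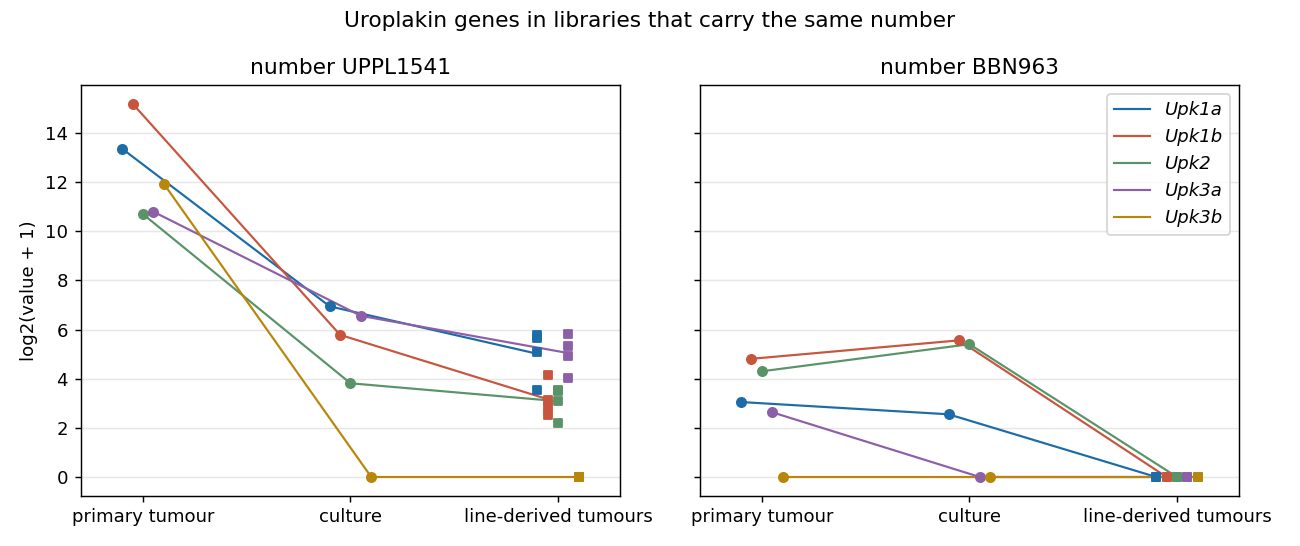
log2(value + 1) of the 5 uroplakin genes in libraries that carry the same number, for UPPL1541 (left) and BBN963 (right): the primary tumour, the culture and the line-derived tumours; circles are single libraries, squares are the line-derived tumours and the lines end at their mean on the log2 scale. In UPPL1541 all 5 genes are lower in the culture than in the primary tumour, while in BBN963 the primary tumour is already near the bottom of the scale.

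Line-derived tumours were set against the cultures of their lines with line as a factor, in 10 tumours and 3 cultures. None of the 4 genes tested passed (Upk3b was at 0 throughout), and edgeR on recovered reads called 0. In limma 1 of the 4 had an unadjusted p under 0.05, as had 5801 of all 14321 genes. Of all genes, 8.99 percent passed as lower and 20.1 percent as higher. Upk1a gave -1.59 (unadjusted p = 0.040, limma adjusted p = 0.11), Upk1b -2.04, Upk2 -1.66 and Upk3a -0.54. Upk1a and Upk2 passed as lower in tumours under quantile normalization (-3.14, adjusted p = 0.0081, and -2.69, adjusted p = 0.048), a setting under which 49.4 percent of the genes that passed were higher in tumours, against 69.1 percent as deposited.

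The 3 KT cultures held more Upk1a, Upk1b and Upk3b RNA than the other 3 cultures. Upk1b stood at 19542 units in KT1044, 5713 in KT1970 and 2132.5 in KT1975, against 54.2 in the UPPL1541 culture, 46.2 in the BBN963 culture and 0 in the MB49 culture. Upk1a stood at 3321, 451 and 138 units in the same order of KT lines, against 122 in the UPPL1541, 4.87 in the BBN963 and 13.5 in the MB49 culture. KT1975 was thus close to the UPPL1541 culture in Upk1a, with 1 library each. Upk3b stood at 53.3, 144 and 29.3 units and Upk3a at 113, 7.70 and 1.78 units, while Upk2 stood at 33.3, 5.50 and 0 units. Upk1b in the KT lines lay within the range of the UPPL primary tumours (1561 to 37628), and Upk2 lay within or below the range of the UPPL1541 and BBN963 cultures (13.1 to 41.4). On the per-kilobase scale Upk1b made up 79.0 to 90.5 percent of the sum of the 5 genes in the KT cultures, beside a median of 45.8 percent in UPPL primary tumours. Mesothelial markers summed to 10549 to 16963 units in these cultures, with Lrrn4, Rspo1 and Calb2 at 0 in all 3, and pan-epithelial markers to 27194 to 66344 units. The KT lines are grouped by name only and were not tested against other cultures.

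Across the 9 groups the order of medians differed between genes. UPPL primary tumours came first for each of the 5 genes. For Upk1b the KT cultures (5713) and the BBN primary tumours (1502.5) followed, and both ranges overlapped their neighbours above; the UPPL1541 and BBN963 cultures (54.2 and 46.2) came after them and then the UPPL1541 tumours (7.015), which lay below both cultures. For Upk1a the KT cultures (451) were followed by the UPPL1541 culture (122), the BBN primary tumours (44.1) and the UPPL1541 tumours (40.7), and the BBN range overlapped both of its neighbours. For Upk2 the BBN primary tumours (156) came next, and the KT cultures (5.50) came after the BBN963 and UPPL1541 cultures (41.4 and 13.1) and the UPPL1541 tumours (8.94), whose range theirs overlapped. For Upk3a the UPPL1541 culture (93.4) and tumours (34.75) came next, ahead of the KT cultures (7.70) and the BBN primary tumours (5.20), whose ranges overlapped. For Upk3b the UPPL primary tumours did not overlap the KT cultures (53.3), the KT cultures overlapped the BBN primary tumours (34.15), and all other groups were at 0.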

How the data were processed

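RNA extraction used the RNeasy kit and library preparation TruSeq Stranded mRNA, per the labels' protocols. The submitters' processing notes list RSEM, Picard 1.64, SAMtools and mm9 with no roles. The deposited signal values are RSEM gene estimates, which the authors brought to a 75th percentile near 1000 in each library (998.9 to 1000 across columns). Columns were matched to samples by line number; headers read KAT for the 3 KT lines. Cultures were grouped by line. One further item of the UPPL genotype and 1 marker gene are not reported here.

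When values above 0 were divided by the smallest step of their library, 92.0 to 96.3 percent came within 0.02 of a whole number and were taken as reads; 14 libraries had a lowest value of less than 1 read. Intervals and floors of 3 reads cover counting error only. limma 3.58.1 (trend, R 4.3.3) was fitted to log2(value + 1) for genes with at least 10 units (1 percent of the median 75th percentile) in as many libraries as the smallest group, or in 3 libraries for the comparison with cultures. A pseudocount understates fold changes of low genes. Primary tumours were fitted alone, the 10 line-derived tumours together, and the 26 UPPL and BBN tumours together. Pairs of genes were compared by exact permutation tests. Correlations were tested by exact permutation across 9 tumours and by 100000 resamples across 11. The fits were tested on simulated data.

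The members, lists and tests were chosen with earlier results of these data known. Named genes were the 5 members, Upk3bl (matched through the RefSeq gene table), the first 2 genes of each list with up to 2 further of smallest adjusted p, and the 3 most alike genes of each member. Other list genes were named after their values were seen. Alternatives were a pseudocount of 10, no filter, a filter of 100 units, array weights, a replicate block, scaling by median of ratios, quantile normalization, dropping single libraries and dropping primary tumours UPPL1541 and BBN963. After seeing the data, edgeR 4.0.16 (quasi-likelihood) on recovered reads and a fit lacking the 5 libraries with a commonest low value of at least 10 reads were added. RefSeq promoters (GRCm38.p6) matched 3 of 5 members; no coordinates on the authors' build were used. Other software was matplotlib 3.10.9, scipy 1.17.1, pandas 2.3.3, numpy 2.4.6 and Python 3.11.15.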

Additional observations from a re-analysis of the deposited data

Results flagged for a closer look

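Within a group of 4 to 10 libraries, a library was singled out where its gap to the nearest other library, as a share of the range of the group on the log2 scale, passed Dixon's 95 percent limit, which chance passes in about 1 in 20 groups. UPPL1591 was singled out as low in Upk1a (166 units, gap 0.497 of the range) and in Upk3b (453 units, gap 0.544 of the range) among UPPL primary tumours. MB49 tumour 2 was singled out in Upk2 (3.37 units, which is 3 reads, beside 0 in the other 3 tumours, a gap of 1.0 of the range). With 3 values tied at 0, any value above 0 gives a gap of 1.0, so the rate of 1 in 20 does not apply. The commonest low value of that library was also 3 reads.

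The KT cultures enter no statistical test of the report, and 13 of their 15 uroplakin values lay above the limit that a count of 0 allows. In KT1044 these were Upk1a at 3321 units, Upk1b at 19541.6, Upk2 at 33.3, Upk3a at 113 and Upk3b at 53.3. In KT1970 they were Upk1a at 451 units, Upk1b at 5712.9, Upk2 at 5.50, Upk3a at 7.70 and Upk3b at 144. In KT1975 they were Upk1a at 138 units, Upk1b at 2132.5 and Upk3b at 29.3.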

How the results depend on the processing

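The 4 calls between UPPL and BBN primary tumours stood under each planned and added alternative except leaving out the primary tumours of the lines (2 genes called), and without any 1 of 20 libraries (4 called each time). The 4 calls between UPPL line-derived and primary tumours stood under each alternative and without any 1 of 26 libraries (4 each time). The BBN line-derived calls (3) dropped to 1 with a pseudocount of 10, 1 with edgeR and 0 without the 5 libraries of high most frequent low value, and were 0 to 4 when 1 library was left out. With all 5 genes at 0 in both BBN963 tumours, these calls could only be in the direction of lower. With Upk3b at 0 in the line-derived tumours, its interaction value restates the difference between the primary tumours, and a call of it is no separate result. The interaction called 0 genes and called 1 (Upk3b) with a pseudocount of 10 or array weights, and 0 to 1 when 1 library was left out (1 without any of BBN962, BBN963, BBN969, BBN975 or UPPL1591). Its Upk1a, Upk1b and Upk2 values turned positive with edgeR (2.90, 2.41 and 2.80, adjusted p 0.80 to 0.83). Its Upk3a value turned negative with a pseudocount of 10 (-0.71) and without the 5 libraries (-0.062). Its Upk2 value lay between -1.02 and 0.013 when 1 library was left out. The cause was not tested. With all 5 genes at 0 in both BBN963 tumours, the interaction cannot decide whether the model difference changed.

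The stricter filter left no uroplakin gene to test among line-derived tumours (0 called in each of the 3 comparisons). Under the main filter members were tested there only through the groups where they were high. The counts of calls between lines are therefore given as a description and not as support. UPPL1541 against BBN963 gave 2 to 3 calls when 1 library was left out. UPPL1541 against MB49 gave 1 call under quantile normalization and 1 with edgeR, and 1 to 3 when 1 library was left out (1 without UPPL1541 tumour 2 or 4, where Upk2 missed the filter). BBN963 against MB49 gave 0 calls with a pseudocount of 10 and without the 5 libraries, and 1 when any 1 library was left out. Same-numbered line-derived tumours did not deviate together (r -0.09 to 0.07), so the numbers do not pair them; with a replicate block BBN963 against MB49 gave 0 calls (Upk1a adjusted p = 0.056), UPPL1541 against BBN963 gave 2 of 3, and all-gene calls there were 2682 against 4208. Tumours against cultures gave 1 call with a pseudocount of 10, 2 under quantile normalization and 0 to 1 when 1 library was left out. The 1 call (Upk1b) came without the MB49 culture.

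Of the pairs of genes, 3 passed with a pseudocount of 10 and 1 to 3 when 1 tumour was left out (3 without BBN965, 2 without BBN972); Upk2 minus Upk3a lay between -0.38 and 0.77 and Upk1a minus Upk3b between -0.01 and 0.75. Correlations passed in 16 of 20 pairs, 18 with a pseudocount of 10 and 16 under quantile normalization. All-gene calls differed by over 1.5 times with array weights (6548 against 4039 for UPPL and 1810.0 against 1182 for BBN line-derived over primary tumours, 2740.0 against 1404 for the interaction, 2134 against 4163 for tumours over cultures), with edgeR (729 for BBN line-derived over primary tumours and 412 for the interaction), without the 5 libraries (433 and 453 for these comparisons), under quantile normalization (775 for the interaction), and without BBN963 tumour 1 (345 for BBN line-derived over primary tumours, 2588 for UPPL1541 over BBN963 and 448 for the interaction), BBN963 tumour 2 (691 for BBN line-derived over primary tumours) or UPPL1541 tumour 1 (841 for the interaction). Levels under about 25 units in tumours rest on few reads.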
